A study of Saccharomyces cerevisiae with 7 samples.

Results

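Hits of Spo11 were measured upstream of and within 59 genes for cytoplasmic ribosomal proteins of the budding yeast Saccharomyces cerevisiae, out of 5834 ORFs outside chromosome III. The genes were taken from a list of names and not by a cutoff on a measured value. That list was chosen with earlier results of these data known. It comprised 34 genes of the large subunit (RPL) and 25 of the small subunit (RPS) on 14 chromosomes. They formed 25 pairs of paralogues, the A and B copies left by the ancient duplication of the yeast genome, and 9 genes with no second copy. CC-seq maps the DNA end to which a topoisomerase-like protein is covalently linked, at single-nucleotide resolution, and each mapped end is called a hit. SPO11+ cells gave 5 biological replicates, of which replicate 5 was the sum of 2 technical replicates, and spo11-Y135F cells gave 1 control library, in which the catalytic tyrosine of Spo11 is replaced and no double-strand breaks (DSBs) are made. All strains were SK1, carried sae2∆ and were collected after 6 h in sporulation medium at 30 °C, so that Spo11 stays on the ends that it makes and these maps describe sae2∆ cells and not the wild type. The labels give sae2 for replicate 5 but the names of its deposited maps say WT, and it was taken as sae2∆.

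Spo11 starts meiotic recombination by cutting both DNA strands, mostly in the nucleosome-depleted promoters of yeast genes, and regions that are cut often are called hotspots. Ribosomal protein genes are among the most strongly transcribed genes of growing cells, and their promoters share binding by Rap1, Fhl1, Ifh1 and, at many of them, Hmo1. Their transcription is turned down together when nutrients are scarce.

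The SPO11+ replicates held between 3177210 and 8564017 hits, and the spo11-Y135F library held 2326054. Density was expressed as HpM per bp, the hits on both strands per bp, scaled to 1000000 hits of the same library, in the 500 bp before the start codon (upstream) and in the ORF. HpM is a share of a library's own hits, so that a window can be lower in SPO11+ than in spo11-Y135F because hits gather elsewhere. The upstream windows of the 59 genes covered 28854 bp, or 0.259% of the analysed length. They held 0.524 ± 0.0294% of hits in SPO11+ cells (SD, n = 5), and 0.265% in spo11-Y135F cells (95% Wilson interval 0.258% to 0.272%). Intervals cover counting error only. A window held 31 to 3969 hits in a SPO11+ replicate and 75 to 132 in spo11-Y135F.

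Upstream density spanned a 43.6-fold range among the 59 genes, and this order was shared by the replicates. In spo11-Y135F the same windows lay between 0.0645 and 0.113 HpM per bp. Spearman's rho over the 59 genes was 0.965 to 0.99 between pairs of SPO11+ replicates, and -0.106 to -0.04 between a SPO11+ replicate and spo11-Y135F. These coefficients describe windows of the same libraries, 2 pairs of which share bases. The SD over replicates was 10.5% of the mean for the median gene, and at most 22.1%. Against spo11-Y135F, 25 of the 59 windows were higher in SPO11+ and 17 were lower at an adjusted p under 0.05 (edgeR), and 17 did not pass. Over all ORFs, 50.3% of 5730 tested windows were higher and 30.1% were lower. The median log2 fold change was 0.22 for the 59 genes and 0.50 over all tested windows. With edgeR's TMM scaling these medians were -0.32 and -0.04. That scaling centres the windows themselves, so a median near 0 over all of them follows from the method. With it 16 of the 59 were higher and 24 lower, against 39.4% higher and 40.6% lower over all windows. Under either scaling the share of higher windows was smaller among the 59 than over all windows, a difference that was not tested.

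**Figure D1:**
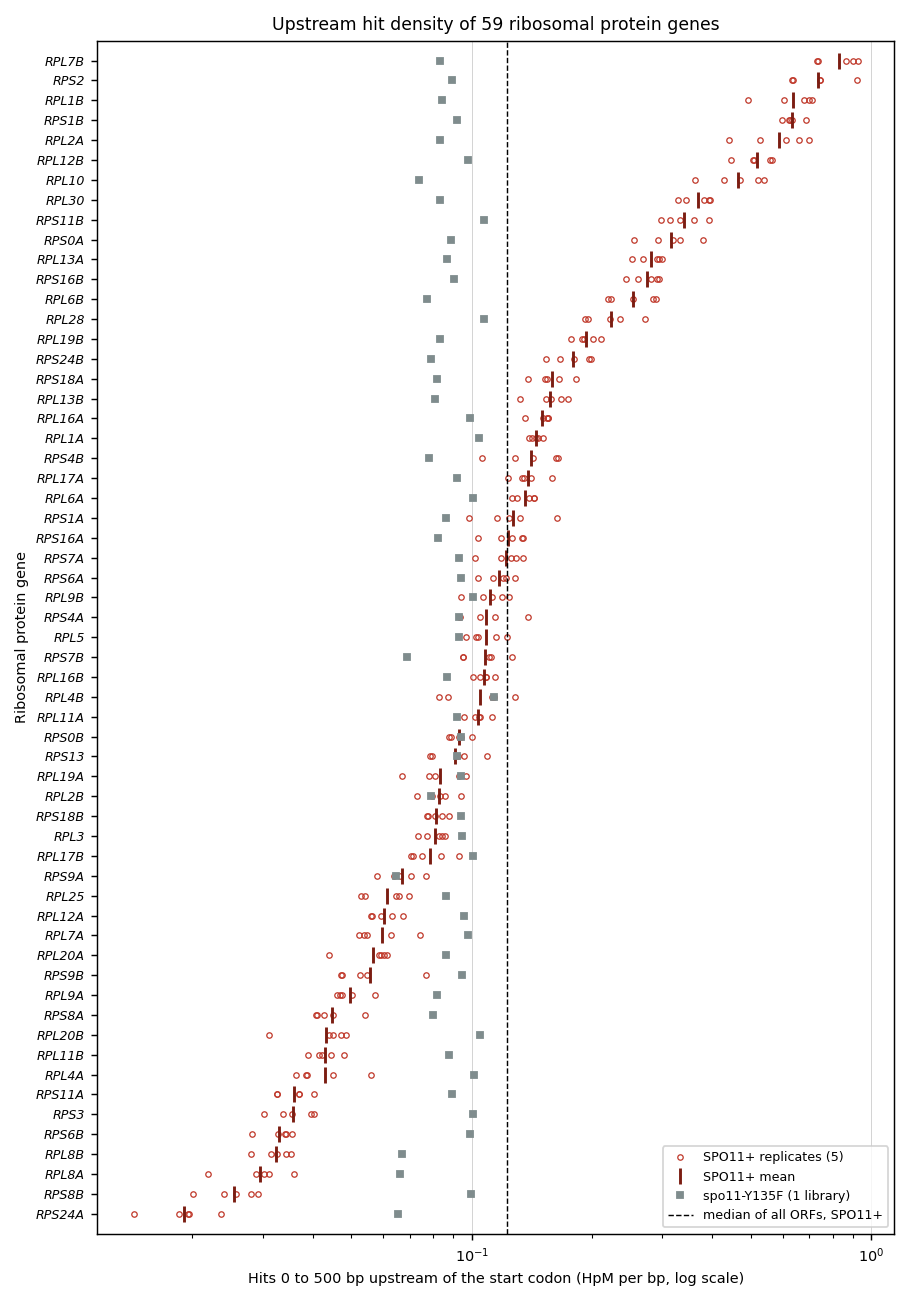
Hit density (HpM per bp, log scale) in the 500 bp upstream of each of 59 ribosomal protein genes, ordered by the SPO11+ mean. Open circles are the 5 SPO11+ replicates, bars their mean, grey squares the single spo11-Y135F library and the dashed line the median of all ORFs in SPO11+; the means run between 0.831 at RPL7B and 0.0191 at RPS24A, while all spo11-Y135F values lie between 0.0645 and 0.113.

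The highest densities were upstream of RPL7B, RPS2, RPL1B, RPS1B, RPL2A and RPL12B, which together held 37.6% of the summed density of the 59 windows. RPL7B (YPL198W, chromosome XVI), a large-subunit protein gene, had 0.9, 0.927, 0.735, 0.732 and 0.863 HpM per bp in SPO11+ replicates 1 to 5, against 0.0834 in spo11-Y135F (95% interval 0.0684 to 0.102). No SPO11+ value came near the control, and the log2 fold change was 3.32 (adjusted p = 4.23e-13). RPS2 (YGL123W, chromosome VII), whose protein lines the mRNA entry of the small subunit, had 0.922, 0.745, 0.632, 0.638 and 0.745 in SPO11+ and 0.0894 in spo11-Y135F, with a log2 fold change of 3.04 (adjusted p = 5.46e-12). RPL1B (YGL135W, chromosome VII), for the protein of the mobile L1 stalk, had 0.698, 0.679, 0.711, 0.491 and 0.605 in SPO11+ and 0.0843 in spo11-Y135F. Its replicate 4 was the lowest and still several times the control. The hits of RPS2 lay far from the start codon. Over 300 bp in place of 500 bp RPS2 had 0.187 HpM per bp, and RPL7B had 1.30. The other 3 genes averaged 0.633 ± 0.0328 (RPS1B), 0.587 ± 0.104 (RPL2A) and 0.516 ± 0.0473 HpM per bp (RPL12B) in SPO11+ (SD, n = 5), against 0.092, 0.0834 and 0.098 in spo11-Y135F. RPL2A makes a protein beside the peptidyl transferase centre and RPL12B one at the base of the stalk that recruits elongation factors. All 6 were higher in SPO11+ with log2 fold changes of 2.40 to 3.32.

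The lowest densities were upstream of RPS3, RPS6B, RPL8B, RPL8A, RPS8B and RPS24A, and all 6 windows were lower in SPO11+ than in spo11-Y135F. RPS24A (YER074W, chromosome V) had 0.0195, 0.0142, 0.0235, 0.0185 and 0.0196 HpM per bp in SPO11+, against 0.0653 in spo11-Y135F (95% interval 0.0522 to 0.0818), with a log2 fold change of -1.79 (adjusted p = 2.95e-05). It was the one gene of the 59 whose upstream density did not exceed that of its own ORF in all 5 replicates, with 1.10 ± 0.28 times the ORF density (SD, n = 5). RPS8B (YER102W, chromosome V) had 0.0239, 0.0201, 0.0258, 0.0292 and 0.028 in SPO11+ and 0.0997 in spo11-Y135F, with a log2 fold change of -1.99 (adjusted p = 1.29e-07). The groups did not overlap at either gene. The 6 genes were picked for their low SPO11+ values, and 30.1% of all tested upstream windows were lower. Within ORFs the median log2 fold change over all tested ORFs was -2.10 on the same scaling to all hits. These calls therefore do not show a loss particular to these windows. RPS3, for a protein at the mRNA entry channel, averaged 0.0358 ± 0.00422 in SPO11+ against 0.101 in spo11-Y135F, and RPS6B, for a protein phosphorylated in response to nutrients, 0.033 ± 0.00279 against 0.0989. RPL8A averaged 0.0296 ± 0.00504 and RPL8B 0.0323 ± 0.00284 in SPO11+, against 0.0662 and 0.0671 in spo11-Y135F.

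The 59 genes were close to all ORFs at the median, and none of their windows was among the strongest 5% of all ORFs. Their median upstream density was 0.12, 0.111, 0.105, 0.105 and 0.106 HpM per bp in replicates 1 to 5, against 0.123, 0.132, 0.117, 0.121 and 0.117 over all ORFs, a ratio of 0.897 ± 0.0491 (SD, n = 5). In spo11-Y135F this ratio was 1.01. The mean over windows was 0.178 ± 0.01 for the 59 genes and 0.302 ± 0.0148 for all ORFs, a ratio of 0.59 ± 0.046. RPL7B and RPS2 were the only 2 above the 90th percentile of all ORFs (0.716 HpM per bp), and none was above the 95th (1.15). At the other end, 58 of 59 lay above the 10th percentile (0.0243) and 48 above the 25th (0.0492). The ratio of medians depended on the neighbourhood. It was 0.781 ± 0.121 where the upstream neighbour was divergent (30 of the genes), and 1.12 ± 0.0847 where it was tandem (29 of the genes), so its direction turned. Among ORFs whose 500 bp window is free of other ORFs, of which 45 were ribosomal protein genes and 2566 in all, it was 0.748 ± 0.0556. The ratio of means stayed between 0.456 and 0.592 in these 3 sets. The upstream intergenic regions of the 59 genes had a median of 682 bp, against 450 bp over all ORFs.

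The 77 other ribosomal protein genes outside chromosome III had a median of 0.0914 ± 0.00128 HpM per bp and a range of means of 0.018 to 1.97. Of 30 ribosome biogenesis genes, which make and modify ribosomal RNA, 11 windows were higher in SPO11+ and 11 lower, with a median of 0.0965 ± 0.0099. Of 20 translation factor genes, 15 were higher and 4 lower, with a median of 0.275 ± 0.0295, above that of the 59 genes in each replicate. Of 8 genes for regulators of ribosomal protein transcription, among them RAP1, FHL1 and IFH1, 4 were higher and 3 lower, with a median of 0.194 ± 0.0115. The lists of translation factor and ribosome biogenesis genes were chosen with earlier results known and are described by counts and medians alone.

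**Figure D2:**
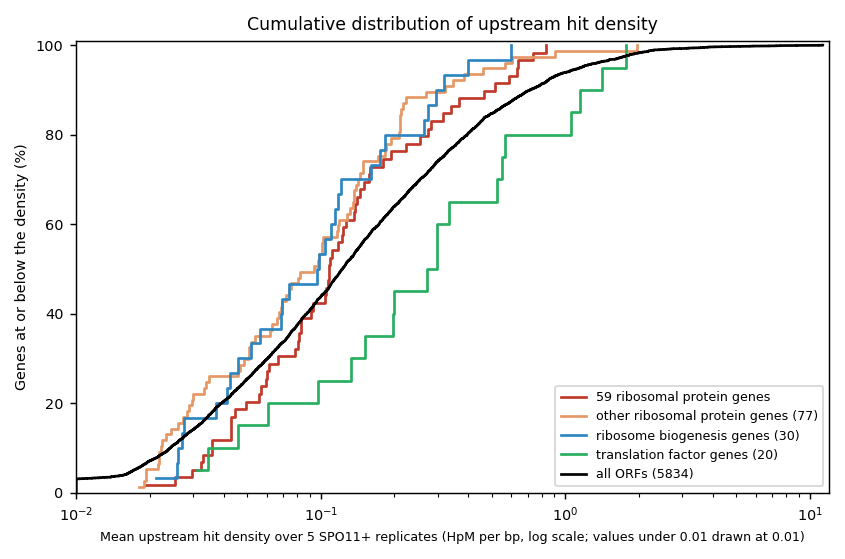
Cumulative share of genes (percent) against mean upstream hit density over 5 SPO11+ replicates (HpM per bp, log scale). The curve of the 59 genes starts to the right of that of all ORFs, crosses it just below the median of all ORFs (0.123) and ends at 0.831, while that of all ORFs reaches 11.3.

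The 9 genes without a paralogue covered most of this range. Each makes the sole form of its protein, so that the ribosome depends on 1 locus. Besides RPS2 and RPS3, the densities in SPO11+ were 0.464 ± 0.0718 upstream of RPL10, for a large-subunit protein that joins late, and 0.368 ± 0.0307 upstream of RPL30, for a protein that represses the splicing of its own transcript. RPL28, the gene in which cycloheximide resistance arises, had 0.223 ± 0.0321. These 3 were higher in SPO11+, with log2 fold changes of 2.65, 2.14 and 1.05 against spo11-Y135F values of 0.0739, 0.0834 and 0.107. RPL5, for the protein that binds 5S rRNA, had 0.108 ± 0.0104 in SPO11+ against 0.0929, RPS13 0.091 ± 0.0125 against 0.092, and RPL3, near the peptidyl transferase centre, 0.0807 ± 0.00516 against 0.0946. None of the 3 passed the test, although RPL3 was lower with TMM factors and with DESeq2 (log2 fold changes -0.77 and -0.74), and RPS13 with TMM factors (-0.56). RPL25, for a protein at the exit of the peptide tunnel, had 0.0614 ± 0.00749 against 0.086 and was lower (log2 fold change -0.49, adjusted p = 0.0426), a call that was lost without replicate 1 (adjusted p = 0.0626) or replicate 2 (0.0812). Over 300 bp RPL30 had 0.222 HpM per bp. The median of the single-copy genes was 0.108 ± 0.0104 and that of the paralogues 0.109 ± 0.00596. Large-subunit and small-subunit genes had medians of 0.111 ± 0.00782 and 0.109 ± 0.00777.

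The averaged profile of the 59 genes was narrower than that of all ORFs, while its width and its distance from the start codon depended on how genes were weighted. Averaged in 10 bp bins over the 59 genes, the profile was highest at -253.5 ± 11 bp (SD over 5 replicates), and without RPL7B at -225.5 bp in each replicate. The profile of ORFs whose 500 bp upstream window is free of other ORFs (open ORFs) was highest at -325.5 bp in each replicate. With each gene's profile divided by its own sum, so that strong windows did not dominate, the highest bins were at -215.5 bp for the 59 genes and -221.5 ± 16.7 bp for the open ORFs, which leaves almost no distance between them. The upstream intergenic region had a median of 682 bp at the 59 genes, 14 of which had another ORF in the window, and of 785 bp at the open ORFs. The profile stayed at or above 50% of its height over 168 ± 14.8 bp for the 59 genes, and over 440 ± 7.07 bp for the open ORFs. Over all 5834 ORFs, many of which have a neighbour within the window, it was highest at -193.5 ± 11 bp and stayed above that level over 414 ± 15.2 bp. With genes weighted equally these widths were 194 ± 18.2 bp for the 59 genes, 486 ± 11.4 bp for the open ORFs and 264 ± 15.2 bp for all ORFs. The profile of the 77 other ribosomal protein genes was narrower still, at 96 ± 8.94 bp, or 152 ± 11 bp with equal weights. Without RPL7B the width was 188 ± 19.2 bp for the remaining 58 genes. The sets differ greatly in gene number, and a single strong gene weighs more in a small set. Widths from sets of equal size were not compared. In a comparison of bands chosen after the profile had been seen, density 100 to 300 bp upstream was 1.76 ± 0.0819 times that 300 to 500 bp upstream. This ratio was 1.64 to 1.84 in the 5 replicates, against 0.864 to 0.886 for the open ORFs and 1.34 to 1.40 for all ORFs. It was 1.43 ± 0.0852 for the 45 ribosomal protein genes of that kind and 1.57 ± 0.0792 without RPL7B. With genes weighted equally it was 1.88 ± 0.0862 for the 59 genes, 1.09 ± 0.0163 for the open ORFs and 1.93 ± 0.0909 for all ORFs, so the 59 genes no longer stood above all ORFs. In spo11-Y135F it was 0.947 for the 59 genes and 1.01 for the open ORFs. The 77 other ribosomal protein genes had a ratio of 3.05 ± 0.0838, or 2.64 ± 0.114 with genes weighted equally. Both were above those of the 59 genes, so a high ratio was not particular to the list. The last 100 bp before the start codon held 0.0322 ± 0.00401 HpM per bp at the 59 genes and 0.0913 ± 0.00429 at the open ORFs. Starts were placed with the R64 gene table on the assumption that it shares coordinates with the authors' build outside chromosome III.

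**Figure D3:**
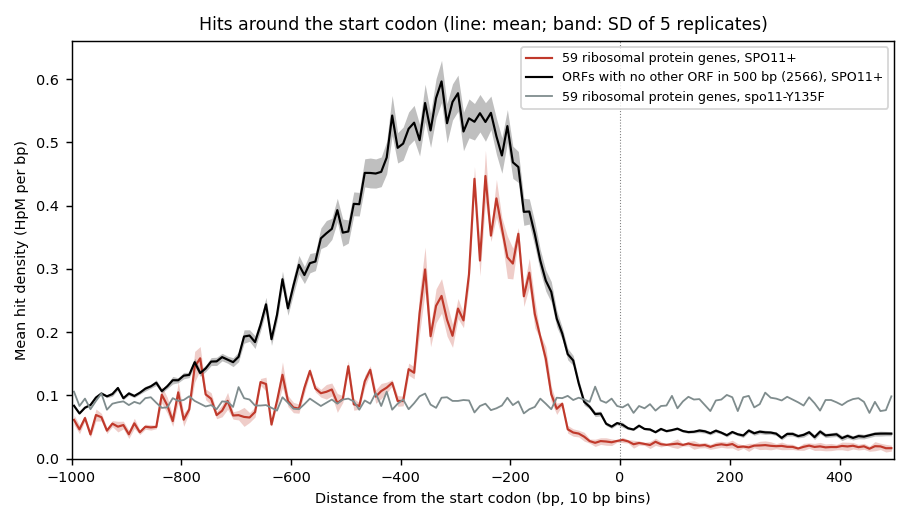
Mean hit density (HpM per bp, 10 bp bins) by distance from the start codon for the 59 ribosomal protein genes and for 2566 open ORFs in SPO11+, and for the 59 genes in spo11-Y135F. Bands are the SD of 5 replicates; the ribosomal protein genes peak near -253.5 bp and fall back toward 0.1 beyond about 400 bp, where the open ORFs are still high, and the spo11-Y135F line is flat.

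At the median gene of the 59, 50% of upstream hits lay on 29 bp of the window, against 23 bp at the median of all ORFs, and at RPL7B on 9 bp. Spo11 cuts leave ends on both strands that are 1 bp apart in these maps, so a site was counted as a Watson hit and the Crick hit at the next base. The strongest site of the 59 windows lay 245 bp upstream of RPL7B (chrXVI:172907-172908, Cer3H4L2, the authors' build), with 62.4 ± 11.3 HpM, or 15% of the hits in that window, and 0 hits in spo11-Y135F. It was uneven between strands, with 44.9 HpM on Watson and 17.5 on Crick. RPS2 had its strongest site 361 bp upstream, with 35.5 ± 7.43 HpM (7.91 on Watson and 27.6 on Crick), and RPL1B 231 bp upstream, with 33.8 ± 8.68 HpM. RPL12B had 20.3 ± 4.36 HpM at 220 bp, almost equal on Watson (10.2) and Crick (10.1). Over the 59 windows the Watson strand held between 29% and 73.4% of hits, with a median of 50.5%.

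A hotspot was called where the mean SPO11+ map, smoothed with a Hann window, exceeded 3 times its mean, and 2689 were found outside chromosome III. Of the 59 genes, 29 had the peak of a hotspot in the upstream window (49.2%), against 52.7% of all ORFs. These were 28 distinct hotspots, since RPL13A and RPS16B share one. The gene with the highest density and no hotspot was RPS16A (0.123 HpM per bp), and the lowest with a hotspot was RPS13 (0.091). The median hotspot of the 59 genes was 172 bp wide and held 73 HpM, against 187 bp and 117 HpM for 2352 hotspots upstream of any ORF. None was among the strongest 10% of hotspots. The strongest 2 were those of RPL1B (404 ± 64.1 HpM over 592 bp, rank 423) and RPL7B (400 ± 42.6 HpM over 271 bp, rank 426), with 55 and 24.1 HpM in spo11-Y135F. Their highest points lay 230 and 245 bp before the start codon. Of the 29 genes, 23 had the highest point 100 to 300 bp before it, a band chosen after the profile had been seen. The share among all ORFs with a hotspot was not counted. Of the 15 divergent genes with a hotspot, its highest point was nearer to the gene's own start in 12 and nearer to the neighbour's in 3. The 3 were RPL7B, 152 bp from the start of YPL199C, RPL10, 141 bp from that of BUD20, and RPL13A, 233 bp from that of RPS16B. The highest point had to lie in the gene's own upstream window, so a long intergenic region favoured or forced the own start. The hotspot of RPL13A and RPS16B enters on both sides. These counts therefore do not show a preference for either start, and no such count was made over all divergent ORFs. The shares were 62.7% against 61.1% at 2 times the mean, 39% against 39.4% in 300 bp windows, and 25.4% (15 genes) against 40.5% at 5 times the mean.

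The ORFs held few hits. Their median was 0.019 ± 0.00456 HpM per bp at the 59 genes and 0.0202 ± 0.00448 over all ORFs in SPO11+, against 0.0881 and 0.086 in spo11-Y135F. All 59 were lower in SPO11+ by edgeR, as were 90.1% of the 5663 ORFs tested. This call depended on scaling to all hits. With TMM factors or DESeq2's size factors, which centre the ORFs themselves, 1 and 0 of the 59 were lower. The means over ORFs were 0.0199 ± 0.00424 for the 59 genes and 0.0503 ± 0.00252 for all ORFs, a ratio of 0.393 ± 0.068, while the ratio of medians was 0.937 ± 0.026. The highest 3 belonged to genes with strong upstream windows. They were RPL1B (0.0409, 0.0395, 0.0506, 0.0404 and 0.0433 in SPO11+ against 0.128 in spo11-Y135F), RPL12B (0.0306 ± 0.0046 against 0.0604) and RPL2A (0.0291 ± 0.0035 against 0.082). The next, RPL4A, was almost level in its ORF (0.0287 ± 0.00582) but had a weak upstream window (0.0429 ± 0.00797 HpM per bp). Reads were kept without a limit on mapping quality, so reads of near-identical paralogue ORFs could have been placed on either copy, which was not tested. Upstream density exceeded ORF density in 5 of 5 replicates at 58 of 59 genes. The median ratio of upstream to ORF density was 6.36 ± 1.94 for the 59 genes and 5.83 ± 1.68 for all ORFs in SPO11+, and 0.986 and 1.04 in spo11-Y135F. Among the 59 genes this ratio ran between 1.10 at RPS24A and 33.9 at RPS2, and exceeded 10 at 16. For the open ORFs its median in SPO11+ was 8.01 ± 2.55. The shares of all ORFs with more hits upstream than in the ORF, or with a ratio over 10, were not counted. Over the 59 genes upstream and ORF density had a Spearman's rho of 0.502, which describes windows that adjoin.

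Paralogues that make nearly the same protein differed in upstream hits. In 22 of 25 pairs the same copy had more hits in all 5 SPO11+ replicates, the A copy in 10 and the B copy in 12. The fold between copies had a median of 2.24, exceeded 2 in 14 pairs, 4 in 7 and 8 in 4. Neither the count nor the folds were taken over pairs of genes that are not paralogues. They are therefore not shown to be particular to paralogues. The SD of the log2 ratio over replicates was 0.18 at the median pair and at most 0.42. In spo11-Y135F no pair differed by more than 0.55 on the log2 scale, with a median of 0.19. With 5 replicates the exact two-sided sign-flip permutation test cannot reach a p under 0.05. All 22 pairs had the smallest p it allows, which is 0.071 after Benjamini-Hochberg adjustment over the 25 pairs. The level of one copy did not go with that of the other. Over the 25 pairs Pearson's r of log10 density was 0.03 and Spearman's rho 0.0692, a description over genes of the same libraries. Both copies had a hotspot in 4 pairs, 1 copy in 15 and neither in 6.

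**Figure D4:**
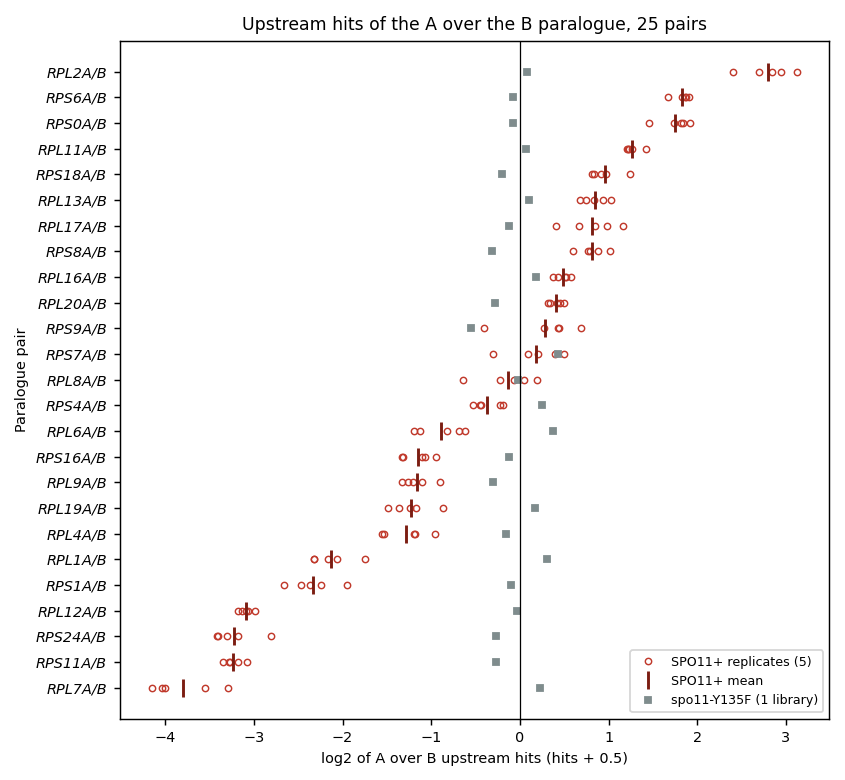
The log2 ratio of upstream hits of the A over the B paralogue (hits + 0.5) for 25 pairs, with open circles for the 5 SPO11+ replicates, bars for their mean and grey squares for spo11-Y135F. The means run between 2.80 at RPL2 and -3.80 at RPL7, and the 5 replicates lie on both sides of 0 only at RPS9, RPS7 and RPL8.

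The widest gap was at RPL7, where A over B was -4.03, -4.15, -3.55, -3.30 and -4.00 in replicates 1 to 5 and 0.23 in spo11-Y135F. The mean of -3.80 ± 0.36 is a 14-fold excess at RPL7B. RPL7A (YGL076C, chromosome VII) had 0.0595 ± 0.00915 HpM per bp in SPO11+ against 0.098 in spo11-Y135F and was lower (log2 fold change -0.73), while RPL7B was higher. RPS11A/B, for a protein of the small subunit, had -3.23 ± 0.11, with 0.0358 ± 0.00332 upstream of RPS11A and 0.34 ± 0.0379 upstream of RPS11B. RPS24A/B had -3.22 ± 0.25, with 0.179 ± 0.0193 upstream of RPS24B, and -2.12 in 300 bp windows. RPL12A/B had -3.09 ± 0.07, with 0.0603 ± 0.0048 upstream of RPL12A. In RPL2A/B the A copy was the stronger, with 2.80 ± 0.27 and 0.083 ± 0.00772 upstream of RPL2B. In each of these 5 pairs only the stronger copy had a hotspot in its window. Hotspots were called on the same hits that ranked the copies, and the pairs were chosen for their large ratios. Each weaker copy lay below 0.091 HpM per bp, the lowest density with a hotspot among the listed genes. Each stronger copy lay above 0.123, the highest density without one. The hotspot calls are therefore not a separate observation. The 3 closest pairs were RPL8A/B at -0.14 ± 0.32, RPS7A/B at 0.18 ± 0.31 and RPS9A/B at 0.28 ± 0.42. Their replicates overlapped 0 (exact sign-flip permutation p = 0.438, 0.312 and 0.188, n = 5 each). In all 3 replicate 4 gave the lowest ratio, -0.64, -0.31 and -0.41.

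At higher resolution the RPL7B signal fell into separate peaks. The 10 bp bins centred on -265.5 and -245.5 bp held 89.2 ± 6.86 and 93.9 ± 9.87 HpM in SPO11+, and the bin between them, at -255.5 bp, held 1.72 ± 0.533. Nearer to the start, a broader group of bins between -185.5 and -135.5 bp reached 41 ± 4.31 HpM at -165.5 bp. The single spo11-Y135F library had 0.43, 1.29, 2.15 and 1.72 HpM in the bins at -265.5, -245.5, -255.5 and -165.5 bp. The highest bin upstream of RPL7A held 3.23 ± 1.75 HpM, at -175.5 bp. Upstream of RPS24B the highest bin was at -355.5 bp with 8.67 ± 1.97 HpM, and upstream of RPS24A none exceeded 0.934 ± 0.422 HpM, against 1.29 in the same bin of spo11-Y135F. The 500 bp window of RPL7B takes in part of its divergent neighbour YPL199C, whose ORF begins 396 bp away, and over these 396 bp RPL7B had 1.04 HpM per bp.

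**Figure D5:**
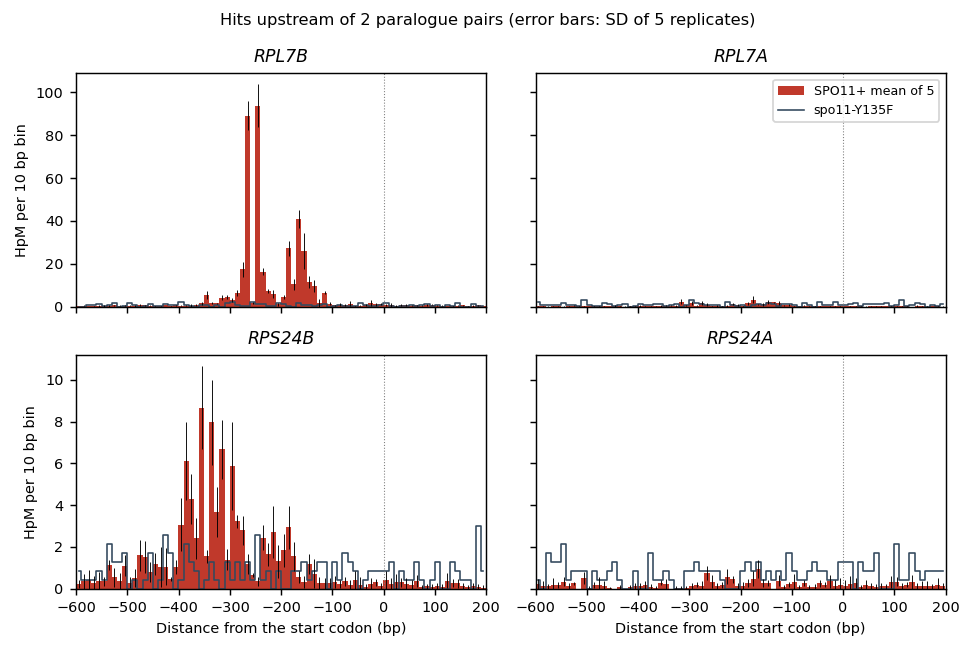
Hits (HpM per 10 bp bin) by distance from the start codon upstream of RPL7B and RPL7A (top) and RPS24B and RPS24A (bottom), with red bars for the mean of 5 SPO11+ replicates, error bars for their SD and a line for spo11-Y135F. RPL7B reaches 93.9 HpM and RPL7A 3.23 on one axis, and RPS24B reaches 8.67 and RPS24A 0.934 on the other.

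A duplicated block places ribosomal protein genes of both subunits head to head, RPS16B with RPL13A on chromosome IV and RPL13B with RPS16A on chromosome XIII. Their upstream windows overlap by 366 and 280 bp, so the hits are shared and the 4 values are not independent. The whole intergenic region between RPS16B and RPL13A (634 bp) held 0.248, 0.212, 0.246, 0.222 and 0.251 HpM per bp in SPO11+ against 0.0888 in spo11-Y135F. That between RPL13B and RPS16A (720 bp) held 0.142, 0.137, 0.149, 0.114 and 0.133 against 0.0806. The chromosome IV copy was the higher in 5 of 5 replicates, with no overlap. On chromosome IV the strongest site (chrIV:308008-308009, Cer3H4L2; 13.6 ± 4.03 HpM) lay 219 bp before RPS16B and 416 bp before RPL13A. On chromosome XIII it (chrXIII:551434-551435; 5.28 ± 0.74 HpM) lay 227 bp before RPL13B and 494 bp before RPS16A. In the 2 blocks the strongest site thus stood near the start of opposite members of the pair.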

How the data were processed

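Paired reads had been aligned by the authors to Cer3H4L2 (bowtie2, no limit on mapping quality), which adds his4::LEU2 and leu2::hisG to the yeast genome, and they had masked repeats, telomeres and rDNA. Each deposited map gives counts of hits, not normalized, for every position on both strands. Reads of the SK1 strain were aligned to a build of another strain. PCR copies cannot be told apart from separate molecules. An averaged map was not used. The 59 genes, the lists and the comparisons were chosen with earlier results of these data known.

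Start codons and ORF extents, introns included, were taken from the R64 gene table, whose coordinates are not printed, and strands from the systematic names. Since the added loci lie on chromosome III, it was not analysed. None of the windows of the 59 genes held masked positions (runs of more than 200 bp without a hit in any library). Windows were compared between 5 SPO11+ replicates and 1 spo11-Y135F library with edgeR 4.0.16 (quasi-likelihood test, library size set to total hits, at least 10 hits in at least 1 library, Benjamini-Hochberg adjustment over all windows tested). The lone control is assumed to vary like the SPO11+ replicates. DESeq2 1.42.0 was an alternative. In simulated counts for 5726 upstream windows, 100% of 100 windows raised 4-fold, 98% of 100 lowered to 0.25 and 0.0724% of 5526 unchanged ones were called. Both groups were drawn from the SPO11+ means with an assumed dispersion of 0.02. The simulated control thus varied like the replicates, and hits did not gather elsewhere in one group. These rates are therefore not error rates of the calls on the real maps. Hotspots used a Hann window reaching 100 bp to each side, at least 25 bp, and merging under 200 bp. The scripts ran under Python 3.11.15 with numpy 2.4.6, scipy 1.17.1 and pandas 2.3.3.

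Genes were named by rank (6 highest, 6 lowest), as single-copy genes, by paralogue ratio (5 largest, 3 smallest), by ORF density (3 highest) and as divergent pairs of ribosomal protein genes. RPL4A was added as the next by ORF density. Positions in single windows were described for genes chosen after their values were seen. A planned search of promoter sequences for Rap1, Reb1 and Abf1 motifs was not run, since no sequence was used here.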

Additional observations from a re-analysis of the deposited data

Results flagged for a closer look

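Of 48 sets of 5 replicate values examined, 3 held a value far from the others, where chance alone gives about 1 in 20. Upstream of RPS9B, SPO11+ replicate 4 had 0.077 HpM per bp, while the other 4 lay between 0.0471 and 0.0548. The median ratio of upstream to ORF density of the 59 genes was 9.71 in replicate 2, the most deeply sequenced library, and 4.85 to 6.19 in the others. The ratio of the median ORF density of the 59 genes to that of all ORFs was 0.892 in replicate 2 and 0.941 to 0.956 in the others.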

How the results depend on the processing

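The number of the 59 genes higher in SPO11+ upstream, 25, was 16 with TMM factors and 16 with DESeq2, all of them among the 25, and ran between 23 and 25 when a replicate was left out. The number lower was 17, and 16 to 17 with a replicate left out, but 24 with TMM factors and 22 with DESeq2. In 300 bp windows 26 were higher, 22 of them among the 25, and 13 were lower, 11 of them among the 17. Without replicate 5, 24 were higher, 17 were lower and 28 had a hotspot. Over all windows TMM gave 2255 higher and 2327 lower, against 2884 and 1723. The 59 lower ORFs became 1 with TMM factors and 0 with DESeq2, where 15 and 11 of all ORFs were lower, and remained 59 without any one replicate. The ratio of median upstream density to that of all ORFs, 0.897, moved to 0.749 with windows ended at the next ORF, 0.59 for means, 1.12 for tandem and 0.781 for divergent regions, and 0.748 with no other ORF in 500 bp. Hotspots fell to 15 genes at 5 times the mean. The ratio of mean ORF densities was 0.393, against 0.937 for medians. The profile peak, -253.5 bp, was at -215.5 with genes weighted equally and at -225.5 with 50 bp bins or, added after the data were seen, without RPL7B. The ratio of 1.76 between the bands was 1.88 with genes weighted equally, 1.57 without RPL7B and 1.43 with no other ORF in 500 bp. The causes of these changes were not tested.

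The A over B ratio turned for the closest pairs, with 300 bp windows to -0.33 for RPS9, -0.73 for RPS7 and 0.31 for RPL8, and with windows ended at the next ORF to 0.12 for RPL8. Fold changes that had not passed the test turned with TMM and DESeq2 to -0.32 and -0.29 for RPL5, -0.48 and -0.44 for RPL2B, -0.47 and -0.45 for RPS9A and -0.15 and -0.12 for RPS7A, and for RPS13 ran between -0.078 and 0.031 with a replicate left out, above 0 without replicate 4 or 5. Among 264 fold changes of named genes under these settings, 243 kept their direction and side of the threshold. No paired analysis was possible because the groups share only replicate number 1. The single control, the naming of replicate 5 and the depth of weak windows limit what can be read.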
